A study of Mus musculus with 22 samples.

Results

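Mammary tumors of 2 MMTV-PyMT mice at 12 weeks of age, the stage of late carcinoma, were compared with normal mammary glands of 3 FVB mice of the same age. The comparison rests on the CpG positions of the autosomes that were covered by at least 10 reads in all 5 samples. There were 1221237 such positions, of 1460927 seen in at least 1 of the 5 samples and 1586199 seen anywhere in the 22 samples of the series. The PyMT mice were F1 females of transgenic FVB/N males and FVB females, and carried 1 copy of the polyoma middle T antigen transgene. The controls were age-matched wild-type females of the FVB strain. The transgene is driven by the MMTV promoter in mammary epithelium. Per the study's methods, 3 mice per group were sacrificed and outlier samples were removed, which leaves PyMT replicates 1 and 3 and FVB replicates 1, 2 and 3 at week 12. Every sample was DNA of bulk tissue, so a tumor was set against a gland that also holds fat, vessels and stroma.

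DNA methylation is the addition of a methyl group to cytosine, in mammals mostly where a C is followed by a G (a CpG). Most CpGs of the genome are methylated, whereas the dense CpGs around many transcription start sites (TSSs) are kept free of methylation. Tumors of many tissues lose methylation over sparse CpGs and gain it at CpG-dense sites that Polycomb proteins mark in normal cells, many of them at genes of developmental regulators. In enhanced reduced representation bisulfite sequencing (ERRBS), DNA is cut at CCGG sites and converted with bisulfite, so that a read shows a C where the cytosine was methylated and a T where it was not. The method favors CpG-rich sequence, and 46.3% of the tested positions lay within 500 bp of a TSS.

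The 5 samples held 1303813 to 1395550 autosomal positions each, with a mean of 63.4 to 75.7 reads per position. At the shared positions the mean was 68.3 to 79.6 reads. Counted between the 2 PyMT mice alone, 4836 positions differed by the criteria given below, and 2750 to 4145 differed between any pair of controls. Between a PyMT mouse and a control, 77069 to 103348 differed. Mice of a group thus differed at far fewer positions than mice of different groups. The study had removed its outliers after a look at coverage, percent methylation and principal components of these data. The likeness of the mice left in a group may in part reflect that choice.

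Late carcinoma had lower methylation over the genome as sampled here. The mean over all tested positions was 25.3% and 25.4% in the PyMT mice and 26.8%, 26.9% and 26.9% in the controls, so the groups did not overlap. The difference was -1.54 points, with an SD of 0.0932 points (n = 2) in PyMT and 0.0482 points (n = 3) in FVB. The exact permutation test of 2 against 3 samples (two-sided) gave p = 0.2, the smallest value this design allows. In bulk tissue, a change in the share of a cell type and a change of methylation within cells cannot be told apart, here and in all that follows.

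A position was called differentially methylated (DMC) when a logistic model of its methylated reads gave a q-value under 0.01 and the pooled methylation differed by at least 10 points. There were 50452 hypermethylated DMCs, 4.13% of the positions tested, and 100500 hypomethylated DMCs, 8.23%. Hypermethylation made up 33.4% of the DMCs. At 72.9% of all positions the groups differed by less than 5 points. Hypermethylated DMCs had a median difference of 23.2 points and hypomethylated ones of -27.1 points. Both PyMT mice lay above all 3 controls at 47169 of the hypermethylated DMCs, which is 3.86% of the positions tested, and below all 3 controls at 94836 of the hypomethylated DMCs, 7.77% of the positions tested. Over all positions, DMC or not, the PyMT mice lay above the controls at 9.14% and below them at 12.2%. Set alone against the controls, PyMT replicate 1 gave 43526 hypermethylated and 84041 hypomethylated DMCs and replicate 3 gave 37776 and 75023. Of these, 23500 and 51935 were shared, which is 54.0% and 61.8% of the DMCs of replicate 1 and 62.2% and 69.2% of those of replicate 3. The logistic test counts reads and takes no account of the spread between mice. With limma on single positions, which does, 14272 were hypermethylated and 28481 hypomethylated, again with more losses than gains. These limma counts used a looser cutoff, an adjusted p under 0.05, with the same minimum of 10 points. With an F test that corrects for overdispersion, 0 and 0 passed, while 31725 and 65215 had an unadjusted p under 0.05 and a difference of at least 10 points.

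Gains and losses lay in different parts of the genome. Core promoters, taken as the positions within 500 bp of a TSS, gained more often than they lost: 7694 positions (1.36% of those tested there) were hypermethylated and 2991 (0.529%) hypomethylated. In the promoter shoulder, from there to 2 kb from a TSS, 3.92% of positions gained and 3.97% lost. Away from promoters losses prevailed. In coding exons 7.96% gained and 13.3% lost, in introns 8.76% and 18.5%, and in intergenic sequence more than 50 kb from a TSS 5.41% and 25.8%. Repeat-masked sequence, which is mostly transposon remnants, gained at 1.90% of its positions, fewer than any class but core promoters, and lost methylation at 19.3% of its positions. The mean over core promoters was 2.14% and 2.15% in the PyMT mice and 1.84%, 1.79% and 1.80% in the controls. Over repeat-masked positions it was 54.2% in each PyMT mouse and 60.5%, 60.6% and 60.6% in the controls. The groups were apart in both, in opposite directions. A DMC needed a minimum difference, so positions near 0% in the controls could not be called lost, nor those near 100% gained. Of 756680 positions at 0 to 5% in the controls, 8813 were hypermethylated and 0 hypomethylated. Of 71812 at 95 to 100%, 0 were hypermethylated and 9162 hypomethylated. The part of this limit in the counts by location was not tested.

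**Figure D1:**
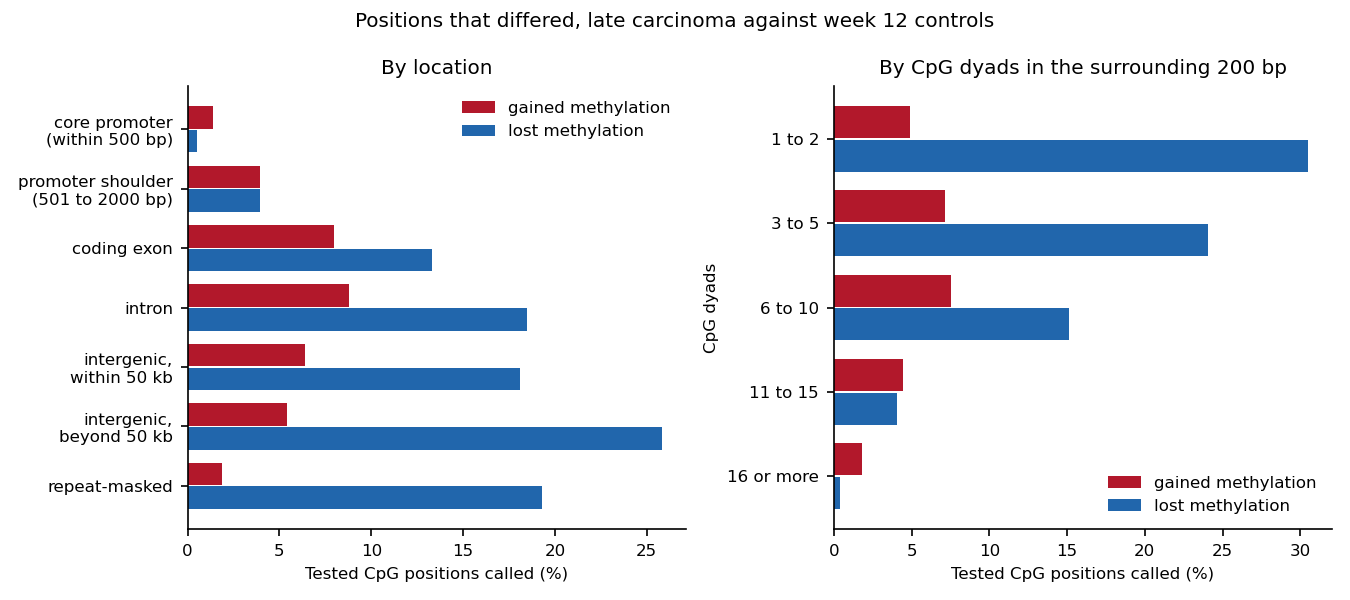
Percent of tested CpG positions called hypermethylated (red) or hypomethylated (blue) in late carcinoma against week 12 controls, by location (left) and by the number of CpG dyads in the surrounding 200 bp (right). Losses reached 25.8% of intergenic positions more than 50 kb from a TSS and 30.5% where CpGs were sparsest. Gains exceeded losses in core promoters and where CpGs were dense. Where the controls had almost no methylation, a loss could not be called.

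The number of CpGs nearby ordered the directions. Where the 200 bp around a position held 1 to 2 CpG dyads (a C and a G paired on both strands), 4.88% of positions gained and 30.5% lost, so hypermethylation made up 13.8% of the DMCs. With 16 or more dyads, 1.79% gained and 0.371% lost, and hypermethylation made up 82.9% of the DMCs. The share rose through the classes between, at 22.9% for 3 to 5 dyads, 33.3% for 6 to 10 and 52.1% for 11 to 15. Over the sparsest class the mean methylation was 62.9% and 63.3% in PyMT and 73.0%, 73.4% and 73.2% in the controls. In the densest class it was 2.44% and 2.38% against 1.87%, 1.82% and 1.82%, so there was little methylation to lose. Among intron and intergenic positions at 80% or more in the controls, CpGs with no other CpG nearby lost methylation at 30.03% where A or T stood on both sides and at 31.5% where C or G did. The share was 22.2% and 18.4% at CpGs with neighbors. These positions were selected on the control values. No chromosome departed from the excess of losses, and the hypermethylated share of DMCs ran from 28.3% on chromosome 15 to 39.9% on chromosome 19.

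Neighboring positions changed together in many places. Tested positions were joined at gaps of at most 100 bp, and a run of at least 3 positions was kept as a region where the mean difference was at least 20 points and at least 1 DMC differed by at least 25 points. This gave 3056 regions with a gain and 8422 with a loss, with a median length of 89 and 88 bp. The 2 groups did not overlap in 3027 and 8387 of them, beside 9.14% and 12.2% of single positions, and the rule itself asked for a large difference. Regions with a gain had a median methylation of 40.6% in controls and 72.7% in PyMT, and regions with a loss 71.5% and 34.9%. A TSS lay within 2 kb of 16.3% of the gained and 8.94% of the lost regions, and 1.18% and 9.97% were mostly repeat-masked. Introns held 1201 of the gained and 2785 of the lost regions, and intergenic sequence beyond 50 kb held 364 and 1761. No test applies to regions chosen by their difference.

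Among regions with at least 8 positions in which the groups did not overlap, the 6 largest gains and 6 largest losses are described here. Sequence is shown for 5 of them to let the density and spacing of the changed CpGs be seen. It is the plus strand of GRCm38.p6, 5′ to 3′, with 12 bases added on each side. Capitals mark every CpG at which at least 1 strand was a DMC. Every tested position in these 5 regions was a DMC, so a CpG in small letters was not tested.
Shroom1 coding exon, gain, chr11:53463703-53463921: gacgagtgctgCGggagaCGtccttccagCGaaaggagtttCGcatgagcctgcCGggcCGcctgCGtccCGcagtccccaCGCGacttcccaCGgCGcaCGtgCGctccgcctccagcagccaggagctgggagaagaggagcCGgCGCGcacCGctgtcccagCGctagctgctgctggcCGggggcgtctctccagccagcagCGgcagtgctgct
Runx1 coding exon, gain, chr16:92605771-92605988: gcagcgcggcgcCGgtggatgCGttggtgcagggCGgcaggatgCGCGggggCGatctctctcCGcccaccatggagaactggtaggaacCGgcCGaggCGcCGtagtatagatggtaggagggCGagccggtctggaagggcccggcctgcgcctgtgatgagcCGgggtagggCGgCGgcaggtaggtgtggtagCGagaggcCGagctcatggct
Epcam coding exon and intron, loss, chr17:87640457-87640619: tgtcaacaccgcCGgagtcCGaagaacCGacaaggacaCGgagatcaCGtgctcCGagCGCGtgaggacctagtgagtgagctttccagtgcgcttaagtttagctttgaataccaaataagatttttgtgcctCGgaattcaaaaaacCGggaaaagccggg
Coro2a intron, loss, chr4:46581658-46581877: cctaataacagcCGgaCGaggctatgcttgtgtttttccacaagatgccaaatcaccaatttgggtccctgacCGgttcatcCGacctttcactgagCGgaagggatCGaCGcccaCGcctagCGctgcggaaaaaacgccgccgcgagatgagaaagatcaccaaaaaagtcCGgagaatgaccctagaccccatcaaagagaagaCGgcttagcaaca
Nup210l coding exon and intron, loss, chr3:90104302-90104381: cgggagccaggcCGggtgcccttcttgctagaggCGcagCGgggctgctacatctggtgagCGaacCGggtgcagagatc

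The largest gain, at Shank2 (a scaffold protein of synapses), lay in the core promoter of a transcript that starts inside the gene, with 75.5% and 72.4% in the PyMT mice and 9.05%, 14.6% and 5.48% in the controls over 12 positions. In the coding exon of Shroom1, an actin-binding protein, all 23 positions were hypermethylated, with 79.2% and 68.4% against 14.8%, 11.9% and 8.33%. A coding exon of Runx1, a transcription factor of the RUNX family, held 85.8% and 81.8% in PyMT and 20.2%, 27.1% and 18.6% in the controls. The 2 PyMT mice were thus close to each other and far above every control. In the printed Shroom1 and Runx1 exons 21 of 24 and 17 of 23 CpGs are in capitals, and the others were not tested. The Runx1 promoter itself, over 132 positions, stayed at 1.93% and 1.99% in PyMT and 1.87% to 2.86% in the controls (adjusted p = 0.506). At the Abr core promoter (a regulator of small GTPases) the values were 76.8% and 77.7% against 16.7%, 16.7% and 23.1%. An intergenic region 14682 bp from the start of Mir6516 had 72.9% and 72.0% against 10.6% to 14.8%. In an intron of Ctif the PyMT mice differed from each other, at 86.3% and 53.1%, and both were above the controls at 6.04% to 12.5%.

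Losses reached larger differences, up to -74.2 points. An exon of Surf6, which encodes a nucleolar protein, had 12.0% and 32.3% in the PyMT mice and 96.3%, 96.0% and 96.6% in the controls. At Epcam, which encodes the adhesion molecule of epithelial cells, a region over an exon and the adjoining intron had 14.3% and 22.8% in PyMT and 91.0%, 78.5% and 93.2% in the controls. A stretch in an intron of Coro2a, a coronin, had 16.8% and 17.5% against 88.2%, 86.3% and 87.5%. No control was under 78.5% in these 3 regions and no PyMT mouse was above 32.3%. At Nup210l the region spanned the end of an exon near the TSS and the start of the intron after it, with 10.7% and 7.62% against 72.7%, 69.3% and 83.8%. The regions in Begain and Map7 had 9.05% to 20.3% in the PyMT mice and 73.3% to 84.4% in the controls.

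**Figure D2:**
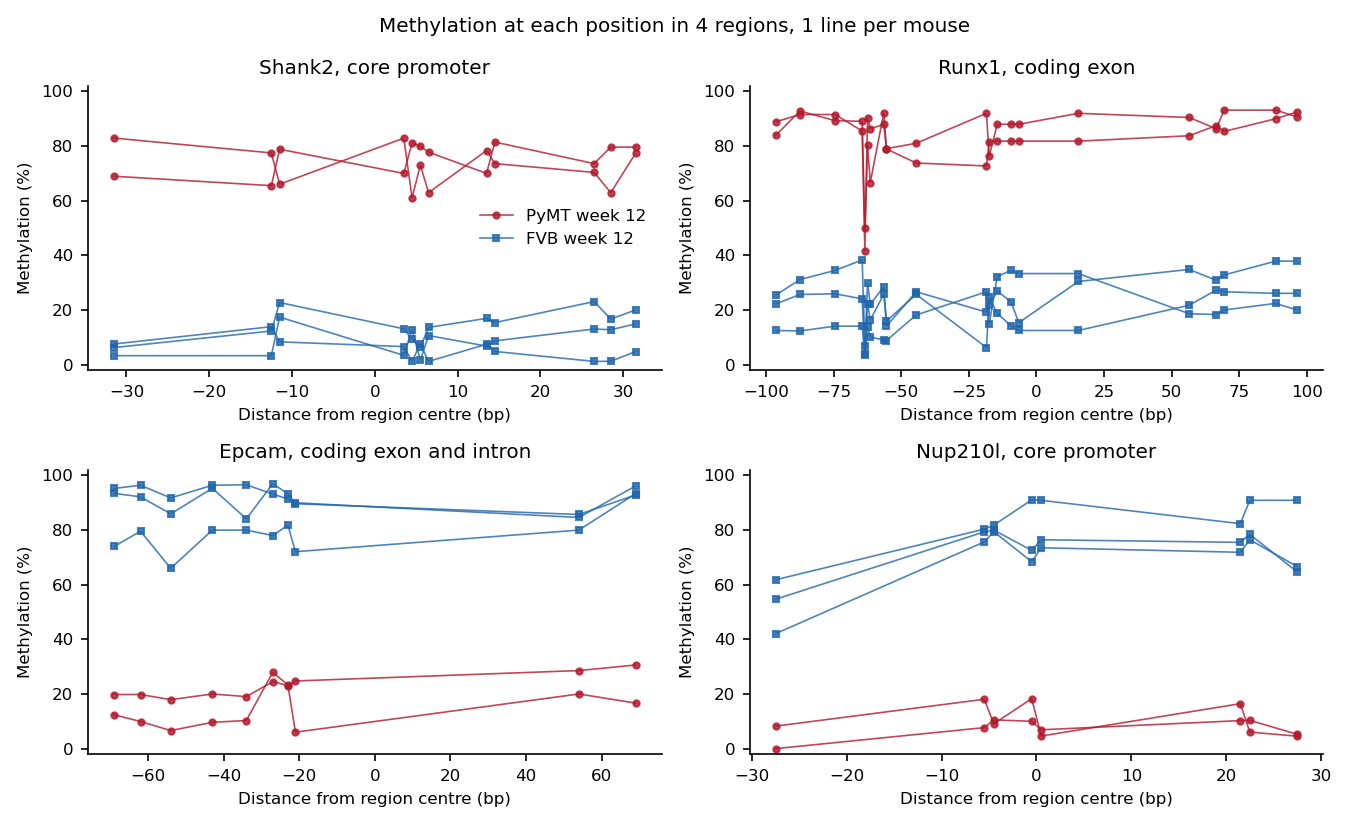
Methylation (percent of reads) at each tested position against its distance in bp from the region's centre, for regions in Shank2, Runx1, Epcam and Nup210l, with 1 line per mouse (red, 2 PyMT mice; blue, 3 FVB mice). The lines of the groups stay apart across all 4 regions, with PyMT above the controls at Shank2 and Runx1 and below them at Epcam and Nup210l.

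For each gene, methylation was averaged over the positions within 2 kb of its curated RefSeq TSSs and compared between the groups with limma. Of 16217 promoters with at least 3 positions, 623 (3.84%) gained methylation and 716 (4.42%) lost it, at an adjusted p under 0.05 and a difference of at least 5 points. The PyMT mice did not overlap the controls in any of the 623 or the 716. Over all promoters they lay above every control in 22.6% and below every control in 21.4%. The median difference over all promoters was -0.0113 points. Promoters that gained had a median of 21 positions and went from 11.1% to 28.4%, while those that lost had a median of 8 positions and went from 65.6% to 34.9%. At least 1 hypermethylated DMC lay in 3157 promoters (19.5%), at least 1 hypomethylated DMC in 3298 (20.3%), and 723 had both. The counts depend on each mouse: without PyMT replicate 1, 280 promoters gained and 307 lost, and without any other single mouse 429 to 495 gained and 397 to 475 lost.

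Among the called promoters with at least 10 positions, the largest gain was at Pnma1, a member of the paraneoplastic Ma antigen family, at chr12:84146131-84148489. Its 59 positions averaged 64.3% and 59.3% in the PyMT mice and 11.7%, 10.6% and 11.4% in the controls, a difference of 50.6 points (3.56 on the logit2 scale, SE 0.12, adjusted p = 0.00337). All 55 positions within 500 bp of its TSS were hypermethylated. The gain covered the whole CpG-rich start of the gene, whereas the 4 positions farther out were above 90% in both groups. The genes Mab21l1 and Mab21l2, developmental genes named after the nematode gene mab-21, lie in different places on chromosome 3 and both rose. Mab21l1 had 76.5% and 68.3% in PyMT against 27.9%, 21.5% and 21.7%, and Mab21l2 had 72.4% and 60.6% against 15.5%, 19.5% and 19.21%. At Mab21l2, 32 of the 34 positions lay downstream of the core promoter.

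Mdk encodes midkine, a heparin-binding growth factor, and had 60.3% and 54.0% in the PyMT mice and 14.0%, 12.6% and 13.7% in the controls. Angpt2 encodes angiopoietin 2, a ligand of the endothelial receptor Tie2, and had 81.5% and 76.1% against 34.1%, 35.4% and 41.6%, all at positions from 500 bp to 2 kb downstream of its TSS. Esam, an adhesion molecule of endothelial cells, had 71.3% and 57.5% against 22.6%, 18.1% and 19.6%. Reep2, a protein of the endoplasmic reticulum, started from 3.37%, 2.03% and 5.002% in the controls and had 40.3% and 48.5% in PyMT. The others were Gm13205, Parvaos and 9030624G23Rik, with gains of 45.8, 40.4 and 38.9 points. Parvaos did not pass without either PyMT mouse, nor 9030624G23Rik without PyMT replicate 1. The adjusted p-values of the 10 ran from 0.00337 to 0.0103.

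**Figure D3:**
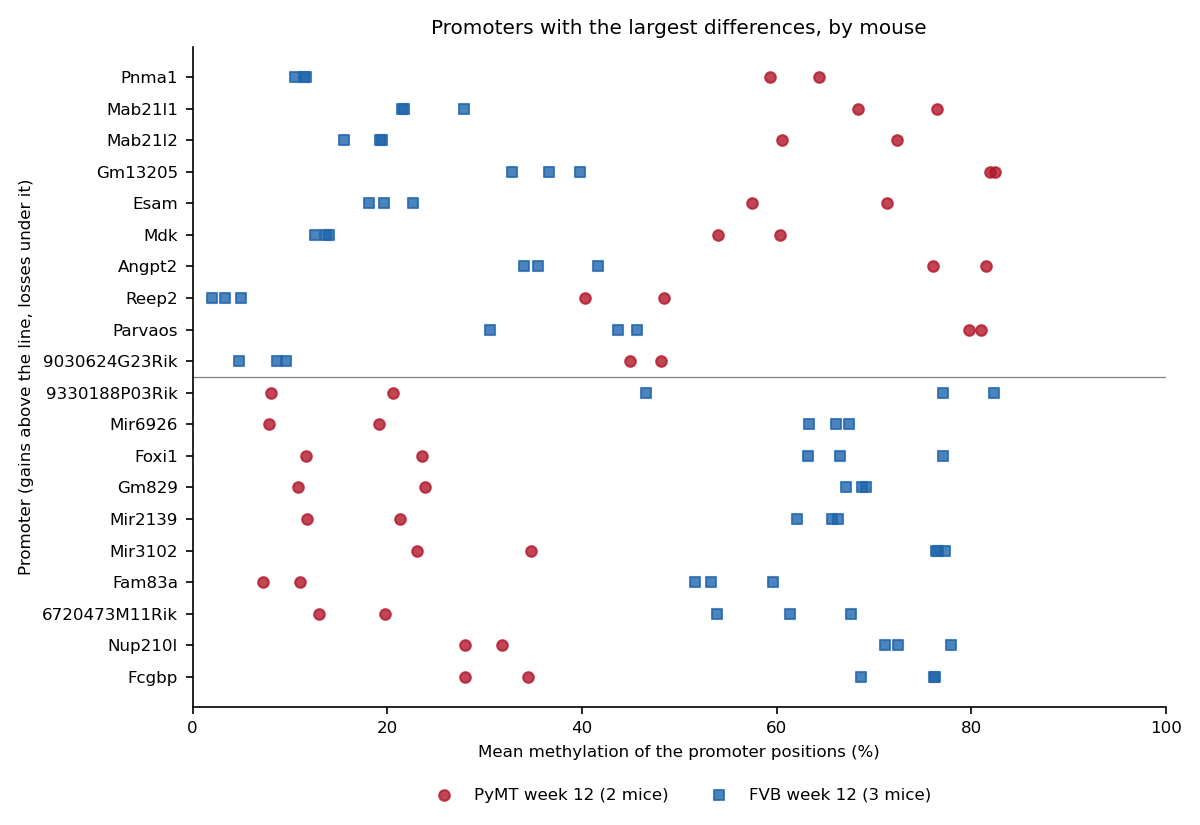
Mean methylation (percent, horizontal axis) of the 20 promoters with the largest differences, gains above the line and losses under it, with 1 point per mouse (red circles, 2 PyMT mice; blue squares, 3 FVB mice). The points of the groups do not overlap in any of the 20, and Pnma1 shows the largest gain at 50.6 points.

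Among the called promoters with at least 10 positions, the largest loss was at 9330188P03Rik, with 8.01% and 20.6% in the PyMT mice and 82.3%, 46.6% and 77.1% in the controls, where FVB replicate 2 stood apart from the other controls (adjusted p = 0.0485). The call was lost without PyMT replicate 1 or 3 or without FVB replicate 1 or 3, with differences of -47.5 to -60.7 points. Foxi1, a forkhead transcription factor, fell to 11.7% and 23.5% from 66.5%, 63.3% and 77.1%. Its 11 positions lay within 500 bp of the TSS and all were hypomethylated. Without PyMT replicate 1 or FVB replicate 1 its adjusted p did not pass. Fam83a had 7.22% and 11.1% against 59.6%, 51.6% and 53.2%, and Fcgbp, which encodes a mucin-like protein that binds IgG, had 27.9% and 34.5% against 76.2%, 68.7% and 76.1%. The Nup210l promoter fell by 43.9 points, all of it within 500 bp of the TSS, where 8 positions averaged 9.15% in PyMT and 75.3% in the controls. Its 3 positions farther upstream were higher in PyMT, at 85.3% against 69.9%. Gm829 and 6720473M11Rik had losses of 51.0 and 44.6 points, and Gm829 did not pass without FVB replicate 1. PyMT replicate 1 was the lower of the 2 tumors at most of these promoters, and the adjusted p-values of the 10 ran from 0.00472 to 0.0485.

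Further losses lay at microRNA genes, whose start sites are taken here as the 5′ ends of their hairpins. Positions around Mir6926 on chromosome 11, beside or inside Sgsm2, had 7.84% and 19.11% in PyMT and 67.4%, 63.3% and 66.1% in the controls. At Mir2139, next to Klhdc7a on chromosome 4, the values were 11.7% and 21.4% against 66.3%, 62.1% and 65.7%, and at Mir3102, next to Arhgef17 on chromosome 7, 23.1% and 34.8% against 76.57%, 76.3% and 77.3%. All 27 positions at Mir6926 were hypomethylated, upstream and downstream alike, though its adjusted p did not pass without FVB replicate 1. These values describe the surrounding sequence and cannot be assigned to the microRNA rather than to the host gene.

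The same holds for Mir200c and Mir141 on chromosome 6, which were chosen after their values were seen because miR-200 family members are known to keep epithelial cells epithelial by acting on Zeb1 and Zeb2 transcripts. Both share the same 21 positions. These averaged 9.12% and 19.9% in the PyMT mice and 57.4%, 54.9% and 58.1% in the controls, a difference of -42.3 points (adjusted p = 0.0118), and 20 of the 21 were hypomethylated. The mature sequences are shown as RefSeq gives them for GRCm38.p6, with the seed that pairs with targets (bases 2 to 8) in capitals.
mmu-miR-200c-3p chr6:124718324-124718346, minus strand: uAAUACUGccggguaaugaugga
mmu-miR-141-3p chr6:124717917-124717938, minus strand: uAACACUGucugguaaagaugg

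Of 17 measured luminal epithelial genes, 7 lost promoter methylation, 0 gained, 4 had a higher mean in PyMT, and the median difference was -3.59 points, beside 4.42% lost and a median of -0.0113 points over all promoters. The epithelial ETS factor Ehf had 12.5% and 15.1% in PyMT and 62.0%, 60.4% and 64.3% in the controls (adjusted p = 0.00337). The prolactin receptor gene Prlr had 8.19% and 13.8% against 41.5%, 42.5% and 54.8%, and Elf5, the ETS factor of the secretory lineage, 8.40% and 14.0% against 43.4%, 42.4% and 39.8%. Ehf and Prlr rest on 4 positions each, and Prlr did not pass without PyMT replicate 1. The other 4 were Wap (a milk protein), Cldn4 (a tight junction protein), Krt18 (a keratin of simple epithelia) and Gata3 (a luminal transcription factor), with losses of 9.20 to 27.2 points. The promoters of Krt8, Krt19, Cdh1, Foxa1 and Epcam were under 6% in both groups and were not called. At Epcam the loss described above lay 4559 bp from the TSS, away from the promoter.

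Lists for other cell types of the gland held calls in both directions, to be read beside the 3.84% gained and 4.42% lost over all promoters. Of 11 endothelial genes, 3 gained (Esam, Eng and Sox17) and Cdh5 lost, with a median of 2.01 points. Eng, which encodes endoglin, had 61.4% and 59.7% in PyMT against 20.4%, 29.5% and 24.0% over 7 positions, and Cdh5, which encodes VE-cadherin, 19.11% and 27.3% against 40.1%, 44.3% and 47.3% over 3 positions. Of 10 adipocyte genes, 3 lost and 1 gained. Cidec, a lipid droplet protein, fell by 25.01 points, Lep (leptin) by 18.8 points and Cfd (adipsin) by 11.9 points. Of 6 leukocyte genes, 0 gained. Cd8a fell by 13.5 points, and Spi1 had a difference of 6.13 points that was not called. Of 8 fibroblast genes 0 were called, with a median of 3.47 points. In limma 7 had an unadjusted p under 0.05, as did 4776 of all 16217 promoters. At an adjusted p under 0.05, 3 passed with differences under 5 points. Over all promoters 2802 passed at that adjusted p, whatever the difference. Fap (16.3 points, adjusted p = 0.0584) and Col1a1 (6.86 points, adjusted p = 0.0548) had the largest differences, and Fbn1 (4.42 points) was 1 of the 3 that passed with a smaller difference. Of 7 basal and myoepithelial genes Tagln gained and Myh11 lost, and Krt5 had a difference of -8.01 points (adjusted p = 0.170). Tagln, which encodes the smooth muscle protein transgelin, had 54.1% and 56.0% against 17.04%, 18.4% and 19.4%. Of these, Cdh5 did not pass when any single mouse other than PyMT replicate 3 was left out, nor Cfd when any other than FVB replicate 1 was. Eng, Cidec, Lep and Myh11 did not pass without PyMT replicate 1, nor Cd8a without that mouse or FVB replicate 2. The part of cell composition in any of these was not tested.

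Of 88 homeobox, paired and T-box genes outside the Hox clusters, 53 held at least 1 hypermethylated DMC (19.5% of all promoters did) and 73 had a higher mean in PyMT (47.6% of all promoters did). In limma 27 had an adjusted p under 0.05, as did 2802 of all 16217 promoters. With the minimum difference of 5 points 2 gained, Lhx3 and Pdx1, and 0 lost, beside 3.84% and 4.42% of all promoters. Pdx1, a regulator of pancreas development, had 8.67% and 8.55% in PyMT against 3.30%, 3.25% and 3.00%, and Lhx3, a LIM homeobox gene, 14.1% and 11.6% against 7.31%, 8.16% and 7.56%. Lhx3 did not pass without PyMT replicate 1 or any 1 control. Pax8 had a difference of 8.88 points that was not called (adjusted p = 0.136). The list's median difference was 1.01 points, beside -0.0113 over all promoters. Of 39 Hox cluster genes, Hoxa9, Hoxc9 and Hoxd1 gained and Hoxa5, Hoxb5 and Hoxb6 lost, beside the same background shares. Hoxd1 had 15.7% and 9.32% against 2.15%, 1.60% and 1.79%. Hoxa5 had 7.87% and 15.6% against 26.8%, 30.2% and 28.0%, and Hoxb5 had 8.93% and 8.81% against 23.5%, 20.4% and 23.5%. The loss at Hoxb5 came from 26 positions from 500 bp to 2 kb downstream of the TSS (10.3% in PyMT and 35.4% in controls), while the 17 positions within 500 bp were at 2.77% and 1.80%, slightly higher in PyMT. Hoxa5 did not pass without any 1 control. Hoxd4 had a difference of -13.7 points that was not called (adjusted p = 0.0783), though it passed without PyMT replicate 1.

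The list of Polycomb target genes, of which the 32 autosomal ones are used here (Col4a6 is X-linked), and the list of mesenchymal genes were drawn up by the study from these same mice, so their direction is no independent evidence. Of the Polycomb targets, 26 held a hypermethylated DMC (19.5% of all promoters did) and 30 had a higher mean in PyMT (47.6% did). The promoter test called 3 gains (Gabra2, Pdx1 and Sctr) and 1 loss (Otop3), beside 3.84% and 4.42% of all promoters, and the median was 1.88 points. With no minimum difference 17 of the 32 had an adjusted p under 0.05, as did 2802 of all 16217 promoters. Gabra2, a subunit of the GABA-A receptor, had 14.0% and 8.49% against 1.09%, 1.16% and 0.564%. Otop3 fell by 9.48 points over 3 positions, which passed in just 1 of the 5 fits that leave out a mouse (FVB replicate 2), and Ripk3 had a difference of 6.45 points that was not called. Of 16 mesenchymal genes measured, each held a hypermethylated DMC, beside 19.5% of all promoters, and such a position was a condition for entry on both lists. Tagln, named above, gained and 0 lost, beside 3.84% and 4.42% of all promoters. With no minimum difference 9 of the 16 had an adjusted p under 0.05. The median was 3.11 points. Fap and Col1a1, the next largest, are given above and were not called.

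In the Wnt pathway, 1 secreted antagonist and 1 receptor gained, beside 3.84% of all promoters. With no minimum difference 4 of 11 antagonists and 5 of 10 receptors had an adjusted p under 0.05, beside 2802 of all 16217 promoters. Dkk3, of the Dickkopf family of secreted proteins, was the only gene called of 11 measured Wnt antagonists, with 41.4% and 34.2% in PyMT against 5.68%, 7.38% and 7.30% (adjusted p = 0.00442). Dkk2 and Sfrp5 had differences of 3.09 and 2.92 points. Of 10 Frizzled receptors only Fzd2 was called, with 42.3% and 36.5% against 7.55%, 9.30% and 7.23%. The gain at Fzd2 lay from 500 bp to 2 kb downstream of the TSS, where 61 positions averaged 47.7% in PyMT and 9.51% in controls, and the 11 positions within 500 bp of the TSS were at 0.310% and 0.830%. The same held at Fzd5 and Fzd8, which had differences of 4.77 and 4.39 points. Their positions within 500 bp stayed under 0.2% in both groups, and those downstream averaged 11.5% against 1.76% at Fzd5 and 10.7% against 3.89% at Fzd8.

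Of 26 tumor suppressors known to be methylated in human breast cancer, 3 gained (Hic1, Cdh13 and Prdm14), 0 lost and the median was 0.0580 points, beside 3.84% gained and 4.42% lost over all promoters. Hic1, a transcriptional repressor, had 23.6% and 21.7% over 251 positions against 7.76%, 8.30% and 8.09%, and Prdm14 had 14.4% and 11.2% against 6.94%, 6.66% and 4.77%, but did not pass without any 1 of the 5 mice. Sfn, which encodes 14-3-3 sigma, had a difference of -29.6 points over 5 positions in which the PyMT mice disagreed (28.6% and 56.7%, against 67.2% to 75.6%), and it was not called (adjusted p = 0.0967). Without PyMT replicate 3 it passed. Of 26 imprinted genes, 2 gained (Nap1l5 and Cdkn1c) and Slc22a18 lost, and 21 had a higher mean in PyMT (47.6% of all promoters did), with a median of 2.58 points. Nap1l5 had 64.8% and 65.9% against 36.1%, 44.4% and 44.5%, and did not pass without either PyMT mouse. At Slc22a18 the loss of 18.5 points came from 8 positions downstream (16.8% against 51.9%), with 40.6% against 36.9% within 500 bp, and it did not pass without PyMT replicate 1. Ndn had a difference of 18.1 points over 4 positions with a wide spread among controls (10.4% to 35.9%, adjusted p = 0.295).

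Of 23 germline genes, which are methylated in somatic tissue, Ddx4, Mael and Sycp1 gained and Tex101, Asz1 and Tex19.1 lost, beside 3.84% and 4.42% of all promoters, and the median was 0.0651 points. Ddx4 had 85.5% and 88.0% against 71.9%, 76.1% and 77.2%, and Sycp1 and Mael rose by 11.2 points each. None of these 3 gains passed without PyMT replicate 1 or without replicate 3. Of 15 genes of the DNA methylation and Polycomb machinery only Dnmt3l was called. It encodes a cofactor of the de novo methyltransferases and had 42.3% and 49.2% against 82.8%, 74.4% and 75.9% over 4 positions, and it did not pass without either PyMT mouse. Jarid2 and Uhrf1 were under 3% in all 5 samples, and the median of the list was 0.0174 points.

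**Figure D4:**
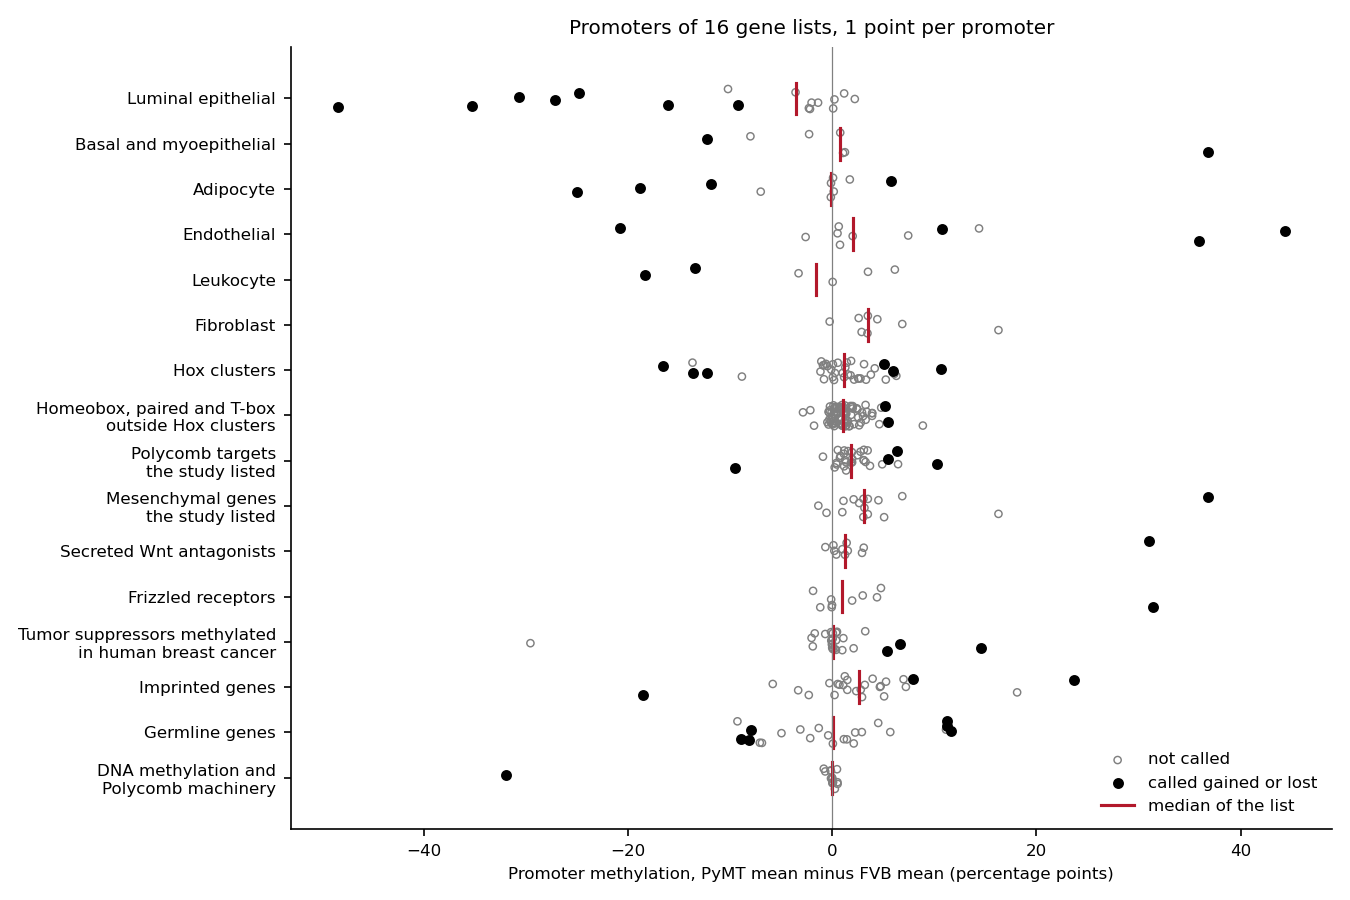
Difference in mean promoter methylation (PyMT mean minus FVB mean, percentage points) for each measured gene of 16 lists; filled points were called by limma, open points were not, and the red bar is the list's median. Luminal epithelial genes reach -48.4 points at Ehf. The medians of the Hox, other homeobox and Polycomb lists are above 0. In them 26 of 39, 73 of 88 and 30 of 32 genes are higher in PyMT, beside 47.6% of all promoters. Single genes are as low as -16.6 points in the Hox list. The study drew up the Polycomb list from hypermethylated promoters of these same mice, so its direction is no independent evidence.

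The late carcinoma difference was then compared with the difference between PyMT and age-matched FVB mice at week 10 (early carcinoma, 3 against 3 mice), week 8 (adenoma and mammary intraepithelial neoplasia, 3 against 3) and week 6 (hyperplasia, 2 against 3). The limma fit used 15935 promoters at positions covered in all 22 samples, and no sample is shared between stages. Against week 10, 0 promoters (0%) passed an adjusted p under 0.05, 807 had an unadjusted p under 0.05, and the smallest adjusted p was 0.112. Against week 8, 0 (0%) passed, 1175 had an unadjusted p under 0.05, and the smallest adjusted p was 0.0593. Against week 6, 230 (1.44%) passed, 217 with a difference that was higher at week 12 and 13 with one that was lower. These counts moved with single mice. Without PyMT replicate 1 of week 12, 12 promoters were higher and 1 lower against week 10, 12 and 1 against week 8, and 98 and 8 against week 6. Without PyMT replicate 3 they were 5 and 0, 14 and 0, and 169 and 10. Without FVB replicate 1, 118 were higher and 6 lower against week 6, and without FVB replicate 2, 130 and 10, with 1 and 0 against week 8.

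The smallest p against week 10 belonged to the promoter that Fam217b and Ppp1r3d share on chromosome 2. Its 66 positions averaged 10.4% and 14.2% in the PyMT mice of week 12, 4.11%, 4.95% and 4.24% in those of week 10, and 0.499% to 0.595% in the week 12 controls (adjusted p = 0.112). The late tumors were above all earlier tumors, of which the highest was 4.95%, but the difference did not pass over all promoters. Spata24, Kdr and Gm32141 followed, with an adjusted p of 0.850 each and group means that differed by less than 8 points at every age.

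All 10 of the largest losses were lower in PyMT at week 6 too, by differing amounts. Ehf had 15.3% and 17.8% in the PyMT mice of week 6 and 12.5% and 15.1% in those of week 12, while the controls held 36.9% to 60.0% and 60.4% to 64.3%. Mir6926 had group means of 11.5% at week 6 and 13.0% at week 12 in PyMT and 61.9% and 65.9% in the controls. Foxi1 had 21.7% and 17.6% in PyMT and 63.8% and 69.0% in the controls. Fcgbp had 49.1% and 36.3% in PyMT and 67.3% and 76.2% in the controls (week 12 against week 6, unadjusted p = 0.00355, adjusted p = 0.113 in limma), so its difference was smaller at week 6. For 6720473M11Rik the means were 22.4% and 16.4% in PyMT and 47.9% and 60.9% in the controls. The change in the difference from week 6 did not pass for any of the 10, which does not show that it stayed the same. Gains were also present at week 6 and some were smaller then. Pnma1 had 40.6% and 38.1% in the PyMT mice of week 6, 54.7% to 64.8% in those of week 10 and 64.3% and 59.3% at week 12 (week 12 against week 6, adjusted p = 0.0282). Mab21l2 had 37.1% and 48.9% at week 6 and 72.4% and 60.6% at week 12 (adjusted p = 0.0307). Dkk3 had 22.4% and 19.8% at week 6 and 40.2% and 32.2% at week 12 (adjusted p = 0.0254). Gabra2 and Pdx1 also passed. For the other 8 of the 10 largest gains the difference was not shown to change between weeks 6 and 12.

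**Figure D5:**
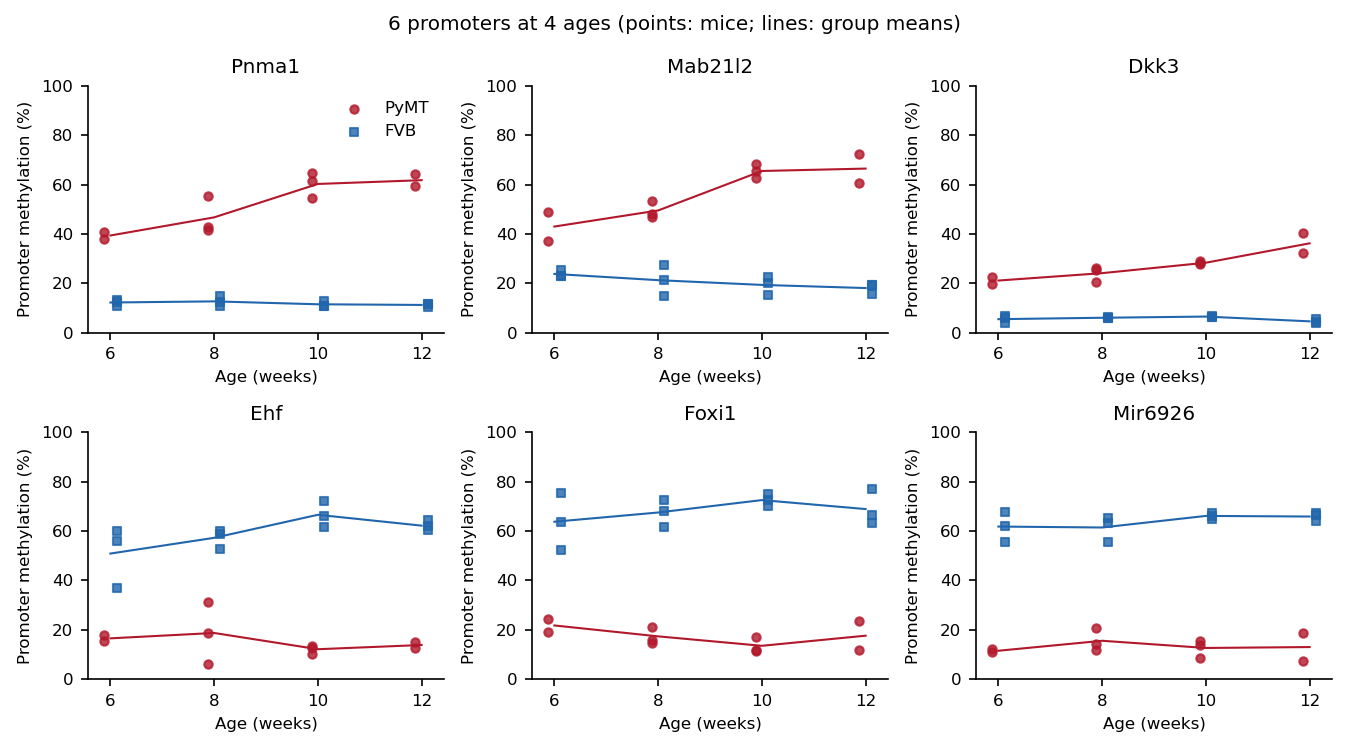
Promoter methylation (percent) at ages 6, 8, 10 and 12 weeks for 6 promoters, with 1 point per mouse and lines through the group means (red, PyMT; blue, FVB). PyMT means of Pnma1, Mab21l2 and Dkk3 are higher at week 12 than at week 6, and those of Ehf, Foxi1 and Mir6926 are low at all 4 ages.

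In windows of 1 Mb with at least 100 positions, 1611 of 1879 had a lower mean in PyMT, and 171 fell by at least 5 points. The largest loss, in the window that starts at 117 Mb of chromosome 1, was from 77.9%, 78.5% and 78.3% in the controls to 58.8% and 60.5%, with 54 of its 101 positions hypomethylated and 0 hypermethylated. It holds no measured promoter. Gains of at least 5 points were found in 11 windows. Of the 6 largest, 4 lay at 18 to 24 Mb of chromosome 12 and 1 at 146 Mb of chromosome 4, with gains of 15.3 to 18.5 points. Their measured promoters include Zfp996, which had 54.4% and 52.4% in PyMT and 21.6%, 23.9% and 26.8% in controls (adjusted p = 0.00502), and Gm13034, with 57.5% and 53.9% against 26.3%, 31.7% and 31.2%. Whether the reads in these 5 windows map to single places was not tested. The other, at 57 Mb of chromosome 7, holds Gabra5, a subunit of the GABA-A receptor. Gabra5 had 35.1% and 30.5% against 2.58%, 2.60% and 2.80%, with 120 of 133 positions hypermethylated. These 3 promoters were chosen after their values were seen.

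The number of reads also differed between the groups in places. On chromosome 11 from 110 Mb to its end, both tumors had more reads than the controls: the log2 ratio of the share of reads to the mean of the controls was 0.25 and 0.34 from 110 to 120 Mb and 0.24 and 0.46 beyond, against -0.03 to 0.03 in each control. Over the other 250 windows of 10 Mb the median was -0.03 and -0.02 in the tumors, with a range of -0.58 to 0.13 in PyMT replicate 1 and -0.10 to 0.05 in replicate 3. Single windows of the controls ranged from -0.71 to 0.52. Other windows of chromosome 11 were also higher in both tumors, such as 0.10 and 0.05 from 70 to 80 Mb and 0.09 and 0.04 from 60 to 70 Mb. From 110 to 120 Mb, 6.68% of positions were hypermethylated and 11.8% hypomethylated. The part of read number in these calls was not tested; without this segment 49390 and 98645 DMCs remained over the rest of the genome.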

How the data were processed

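Genomic DNA of bulk tissue was profiled by ERRBS. Per the labels and the study's methods, reads were aligned to mm10 by the authors using Bismark, whose version is not given in the sources used here. They deposited, for every CpG cytosine with at least 10 reads, the count of reads without normalization (the strands apart) and the percent of reads with C and with T. Methylated reads were recovered here as coverage times percent. All positions fell on a CpG of GRCm38.p6, the same build. Groups, weeks and replicate numbers came from the labels. Each sample is 1 mouse, and batches are not given in the labels. Reads carry no molecular identifiers and are not independent molecules.

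Positions were tested by a likelihood ratio test of a logistic regression with Benjamini-Hochberg q-values. Promoters were tested with limma 3.58.1 (R 4.3.3, empirical Bayes) on log2((percent + 1)/(100 - percent + 1)) of the mean over positions, with Benjamini-Hochberg adjusted p-values over all promoters. Stages were compared in a limma fit of 22 samples in 8 groups. TSSs were those of 43783 curated RefSeq transcripts of 24963 autosomal genes. Single means were compared by exact permutation tests. Named promoters were the 10 largest gains and 10 largest losses among called promoters with at least 10 positions, the 3 largest differences of each list, and the 5 smallest p against week 10. Other names were chosen after their values were seen. The comparison, its lists and its settings were chosen with earlier results of these data known. The tests were checked on simulated data, in which reads at single positions had no spread between mice. That check thus does not cover the effect of such spread on the DMC counts. Alternatives were other coverage minimums, strands, overdispersion corrections, promoter windows, region rules, fits, a replicate block and leaving out each mouse. Other steps ran in Python 3.11.15 (pandas 2.3.3, SciPy 1.17.1, NumPy 2.4.6) and figures were drawn with matplotlib 3.10.9. Expression was not analysed here, and a few measured genes are not reported here.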

Additional observations from a re-analysis of the deposited data

Results flagged for a closer look

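The difference between PyMT and FVB mice was larger at week 12 than at week 6 for several named promoters, by the limma test of the difference itself over all promoters. On the logit2 scale, week 12 minus week 6, it was 1.42 at Pnma1 (adjusted p = 0.0282), 1.88 at Mab21l2 (adjusted p = 0.0307), 1.26 at Dkk3 (adjusted p = 0.0254), 1.82 at Gabra2 (adjusted p = 0.0405) and 1.04 at Pdx1 (adjusted p = 0.0482). It was 2.03 at Fam217b and 2.03 at Ppp1r3d, which share a promoter (adjusted p = 0.00109), and 1.72 at Spata24 (adjusted p = 0.0309), where the means stayed under 5% in all groups. Over the 9 positions of Spata24, the PyMT mean was below the FVB mean at week 6 (3.43% against 4.11%). At week 12 it was above (4.83% against 1.15%), so the sign changed and the controls fell more than PyMT rose. Week 6 holds 2 PyMT mice and 3 FVB mice.

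The X chromosome was outside the comparison of the autosomes. Of its 28960 positions covered in all 5 samples, 10.5% gained methylation and 13.2% lost it by the same criteria. At X-linked core promoters 16.7% of 10708 positions gained and 1.22% lost, and at the other X positions 6.79% gained and 20.2% lost. The mean over the core promoters was 30.5% and 31.3% in the PyMT mice and 24.0%, 24.6% and 25.4% in the controls. Those other positions had a lower mean in PyMT, at 57.5% and 57.8% against 62.2%, 62.4% and 62.5%.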

How the results depend on the processing

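The excess of lost over gained positions was found under each alternative that made calls. With an overdispersion correction the counts of gained and lost positions were 28955 and 60226 by a chi-square test and 0 and 0 by an F test, which has few degrees of freedom with 5 mice (31725 and 65215 had an unadjusted p under 0.05 and at least 10 points). With limma per position, at an adjusted p under 0.05 and at least 10 points, the counts were 14272 and 28481. With at least 25 points they were 22406 and 56511. A test of reads within replicate numbers 1 and 3, which leaves out FVB replicate 2, gave 45793 and 90048. It takes no account of the spread between mice. Promoters numbered 272 gained and 269 lost over the 2 kb upstream, 417 and 261 within 500 bp of the TSS, 494 and 328 with at least 10 positions, 1600 and 1202 with no minimum difference, 280 to 495 and 307 to 475 without single mice, and 0 and 0 in limma with the replicate block (4036 of all promoters had an unadjusted p under 0.05, smallest adjusted p 0.0710). Whether equal replicate numbers pair the samples was not tested. The difference between replicates 1 and 3 in PyMT and that in FVB had a correlation of 0.009 over single positions. Regions numbered 1605 and 3080 with at least 5 positions and 2877 to 3281 and 8033 to 8963 without single mice. The mean difference over all positions was -1.60 to -1.47 points without single mice. Against earlier weeks, without single mice of week 12, 0 to 12 promoters were higher and 0 to 1 lower than at week 10, 0 to 14 and 0 to 1 than at week 8, and 98 to 169 and 6 to 10 than at week 6 (chosen after seeing the data, as was leaving out distal chromosome 11). Of 773 values of 64 named promoters under the alternatives, 764 kept their direction and 9 changed sign: within 500 bp of the TSS Hoxb5 (0.964), Fzd2 (-0.520), Fzd5 (-0.119) and Slc22a18 (3.69 points), in the upstream 2 kb Hoxb5 (0.746), Fzd5 (-0.0724), Slc22a18 (1.53) and Nup210l (15.3), and with at least 20 reads Jarid2 (0.0122). The cause of the other changes was not tested. With 2 PyMT mice, 25 named promoters no longer passed without replicate 1 and 14 without replicate 3. Values resting on 3 to 5 positions, such as Ehf, Prlr and Cdh5, have the support of few CpGs. Others on more positions, such as Lhx3 and Hoxa5, did not pass when any 1 control was left out.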
